A study of Homo sapiens with 16 samples.

Results

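The cleavage regions of 5 genes were described: NUP98 and NUP214, which encode nucleoporins, and NSD1, KDM5A and DEK, which are joined to them in leukaemia. A region belonged to a gene when its centre lay within the RefSeq gene body (hg38) or within 2 kb of either end. This rule uses position only, and it took 230 of the 1469949 regions in 5 lists, from 5 of 20037 protein-coding genes.

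Nucleoporins line the nuclear pore, the channel through which proteins and RNA pass between nucleus and cytoplasm. The phenylalanine-glycine repeats of NUP98 and NUP214 form part of the pore's permeability barrier, and NUP98 also binds chromatin away from the pore. In acute leukaemia a translocation can join these repeats to a chromatin protein: NUP98 to the histone H3 lysine-36 methyltransferase NSD1 or to the histone H3 lysine-4 demethylase KDM5A, and the chromatin-binding protein DEK to NUP214. DNA topoisomerase II alpha (TOP2A) passes a DNA duplex through a transient double-strand break, and poisons that hold the enzyme on the cut DNA are linked to therapy-related leukaemia with translocations.

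The cells were K562, an established human chronic myeloid leukaemia line that carries BCR-ABL1 with extra copies of the joined chromosome 9 and 22 segments, and in which a NUP214-XKR3 fusion has been described. For 1 h the cells were given etoposide at 25 µM, genistein at 50 µM or mitoxantrone at 2 µM, and for 4 h p-benzoquinone at 8 µM. The remaining cultures had the vehicle alone, and every culture held 0.05% DMSO. Vehicle exposure lasted 1 or 4 h and is not tied to single libraries, so whether times match is unknown in each comparison with DMSO. TOP2A was immunocaptured from sonicated lysates, and each list pooled the pre-amplified libraries of a treatment: 3 for etoposide, 2 for genistein, 1 for mitoxantrone, 2 for p-benzoquinone and 3 for DMSO. A further p-benzoquinone library is unamplified by its title and amplified by its description, which ties it to no list. Pooling leaves 1 list per treatment, so there is no replicate error and no p-value, and all intervals given are exact 95% intervals that cover counting error only. The lists held 182582 regions for etoposide, 415215 for genistein, 202865 for mitoxantrone, 359249 for p-benzoquinone and 310038 for DMSO, of which 34, 57, 32, 60 and 47, in that order, lay in the 5 genes.

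NSD1 (chr5:177131798-177300213, plus strand, 168 kb) held 91 of the 230 regions, KDM5A (chr12:280057-389320, minus strand, 109 kb) held 50 and NUP98 (chr11:3675010-3797554, minus strand, 123 kb) held 46. DEK (chr6:18223860-18264530, minus strand, 40.7 kb) held 27 and NUP214 (chr9:131125586-131234663, plus strand, 109 kb) held 16. Per 100 kb of window, summed over the lists, DEK had 60.4 regions, NSD1 52.8, KDM5A 44.1, NUP98 36.4 and NUP214 14.1. NUP214 and KDM5A are of the same length to 3 digits, and NUP214 held 16 regions where KDM5A held 50. Exon and intron positions were not used here, so places are given as distances from the 5′ end of the gene, or as parts 1 to 10 of the body, which are of equal length and counted from that end.

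No region covered a start of the 5 genes. NUP98 alone had a region in a promoter window, ahead of its start, and that window is shown for this reason. Of 11 RefSeq promoter windows of these genes (250 bases before to 50 bases after a start), 2 were touched, both windows of NUP98 and both by the same p-benzoquinone region (chr11:3797706-3797897, value 2.9). Capitals mark the 99 of 300 bases that lie in that region, in the window chr11:3797505-3797804 read on the minus strand (RefSeq, GRCh38.p14).
NUP98 start window: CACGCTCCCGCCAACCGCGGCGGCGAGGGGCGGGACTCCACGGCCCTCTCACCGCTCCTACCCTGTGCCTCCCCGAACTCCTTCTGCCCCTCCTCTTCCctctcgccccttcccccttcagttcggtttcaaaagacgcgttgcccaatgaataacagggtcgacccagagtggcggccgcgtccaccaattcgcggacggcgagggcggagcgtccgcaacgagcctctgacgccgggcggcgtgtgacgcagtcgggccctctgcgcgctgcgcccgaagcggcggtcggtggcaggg
G and C made up 70.3% of the window and 72.7% of its capitals, against a median of 58.7% over all 35116 promoter windows, and 19.5% of them had at least as much G and C as this one. The 2582 windows touched by p-benzoquinone had a median of 54.3%, below that of all windows and below this window. Their spread was not computed, so how usual this window is among them is unknown. The region covers the annotated start of PGAP2 (chr11:3797720-3826371), a gene of GPI-anchor maturation that runs the other way from NUP98. It lies wholly before the NUP98 start at 3797554. Over all genes the etoposide list touched 2.56% of promoter windows, genistein 5.02%, mitoxantrone 2.39%, p-benzoquinone 7.35% and DMSO 4.85%. In at least 1 list 6672 of the 35116 windows were touched, a share close to the 2 of 11 here. The touched NUP98 windows thus do not set these genes apart from all genes. The window at the 5′ end of NUP214 lay 40 bp from a DMSO region (value 2.31), and that of KDM5A lay 109 bp from a genistein region (value 13.97).

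Density was then set against the lists themselves, because they differ in size. The relative density is the number of regions per 100 kb of gene window over the mean of the list, which was 6.61 for etoposide, 15.0 for genistein, 7.34 for mitoxantrone, 13.0 for p-benzoquinone and 11.2 for DMSO. The plot of relative densities places NUP214 lowest in every list. NUP98 lay below the mean beyond counting error with genistein and DMSO, and no interval of NSD1, KDM5A or DEK lay apart from it.

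**Figure D1:**
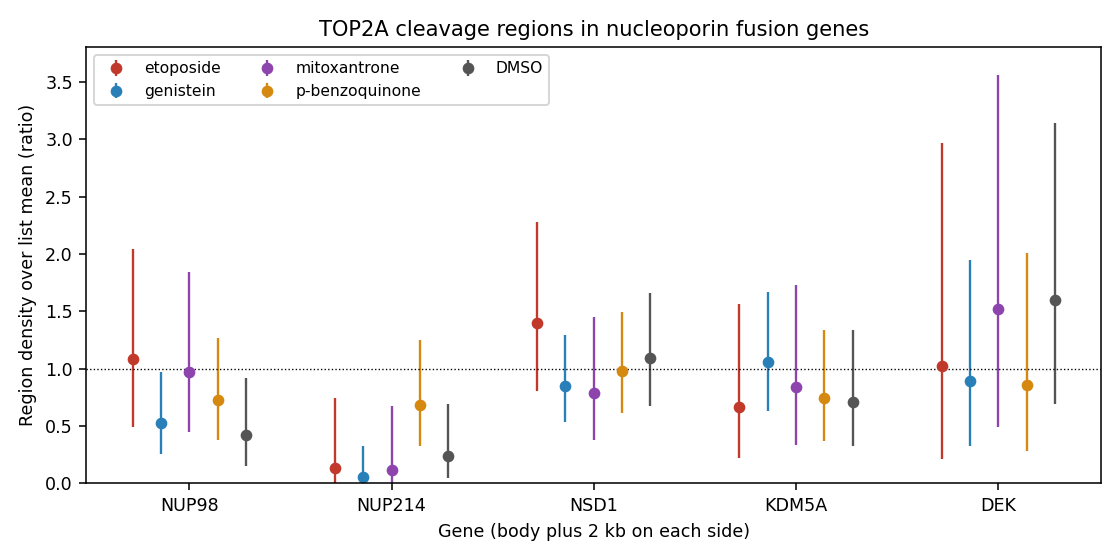
Relative density of cleavage regions (vertical axis, ratio to the list mean, dotted line at 1) in each gene with 2 kb on each side (horizontal axis), by list; points are the values and bars exact Poisson 95% intervals. NUP214 lies between 0.0588 and 0.680, and the bars of NSD1, KDM5A and DEK cross 1 in all 5 lists.

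NUP98, the nucleoporin with the wider range of fusion partners, held 9 regions with etoposide, 10 with genistein, 9 with mitoxantrone, 12 with p-benzoquinone and 6 with DMSO. Its relative density was 1.08 with etoposide (0.492 to 2.04), 0.526 with genistein (0.252 to 0.967), 0.969 with mitoxantrone (0.443 to 1.84), 0.729 with p-benzoquinone (0.377 to 1.27) and 0.423 with DMSO (0.155 to 0.920). The genistein and DMSO intervals lay below 1 and the other 3 held it. Among 2497 genes of like length (within 1.5 times), NUP98 stood at percentile 58.3 with etoposide, 6.35 with genistein, 46.6 with mitoxantrone, 24.2 with p-benzoquinone and 4.47 with DMSO. In DMSO the gene was also sparse beside its surroundings: its 6 regions stood against 33 in an equal length on each side together, a density ratio of 0.364 (0.125 to 0.879). Of those 33, 23 lay on the upstream side and 10 on the downstream side, so the contrast rests mostly on the upstream side. This was the only 1 of 25 such ratios whose interval did not hold 1. Among 25 intervals, 1 such miss can arise from counting error alone.

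The highest NUP98 values of genistein and etoposide lay by the 5′ end, and those of the other lists did not. With genistein the regions 1.98 kb and 0.788 kb inside the gene had values of 69.83 and 35.25, at percentiles 99.1 and 91.5 of that list. With etoposide the highest NUP98 value, 18.32 at percentile 89.4, was 1.69 kb inside the gene and 72 bp from the higher genistein region. Mitoxantrone and DMSO had no region within 5 kb of that end, a distance chosen after the values were seen, and the p-benzoquinone region there was at percentile 21.2. The highest NUP98 value of p-benzoquinone, 8.43, lay at 25.6 kb and that of DMSO, 9.46, at 36.9 kb. At the other end, part 10 of the body held 10 of the 46 regions: 1 with etoposide, 3 with genistein, 3 with mitoxantrone, 1 with p-benzoquinone and 2 with DMSO. The highest mitoxantrone value of NUP98, 32.74 against an input of 0.23 and so 7.15 on the log2 scale, lay there at 120 kb and overlapped a DMSO region of value 3.7.

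NUP214, the cytoplasmic-side nucleoporin, held 1 region with etoposide, 1 with genistein, 1 with mitoxantrone, 10 with p-benzoquinone and 3 with DMSO. Its relative density was 0.134 with etoposide (0.00339 to 0.746), 0.0588 with genistein (0.00149 to 0.328), 0.120 with mitoxantrone (0.00305 to 0.671), 0.680 with p-benzoquinone and 0.236 with DMSO (0.0488 to 0.691). The gene was thus below the list mean in 4 lists beyond counting error, and with p-benzoquinone the interval, from 0.326 upward, held 1. Among 2673 genes of like length it stood at percentile 1.44 with etoposide, 0.917 with genistein, 1.52 with mitoxantrone, 21.0 with p-benzoquinone and 1.93 with DMSO.

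A relative density of at most 0.5 is uncommon for genes of 100 to 200 kb, the class of all these genes except DEK. In that class of 1921 genes it was found in 7.34% with etoposide, 4.53% with genistein, 6.77% with mitoxantrone, 8.12% with p-benzoquinone and 5.67% with DMSO. Of the 4 genes of that class here, 1 was so low with etoposide, genistein and mitoxantrone (NUP214 each time), none with p-benzoquinone and both nucleoporins with DMSO. Over the class, 42 genes (2.19%) were so low in at least 4 of the 5 lists, and 17 genes (0.885%) had at most 1 region in each of the etoposide, genistein and mitoxantrone lists, as NUP214 did.

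The single regions of NUP214 lay apart from each other. Etoposide had a region 31.4 kb from the 5′ end (value 2.28, percentile 8.02), genistein 65.5 kb from it (18.29, percentile 68.0) and mitoxantrone 45.9 kb from it (38.25, percentile 92.8). DMSO had regions at 0.104 kb (value 2.31), 56.1 kb (1.84) and 77.1 kb (4.39), all below the median of that list. None of the 16 NUP214 regions overlapped a region of another list, as 22.8% of all regions in the 5 lists did. Few regions were there to overlap. In parts 8 to 10, which hold the 10 p-benzoquinone regions, etoposide, genistein and mitoxantrone had 0 regions and DMSO had 1. The lack of overlap thus cannot be read apart from the low region number.

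The p-benzoquinone regions of NUP214 all lay in the 3′ part of the gene. There were 0 in parts 1 to 7 of the body, which allows a relative density of up to 0.372, then 2 in part 8, 2 in part 9 and 6 in part 10. Over parts 8 to 10 the relative density was 2.35 (1.13 to 4.32) with p-benzoquinone, against 0.272 (0.00689 to 1.52) with DMSO from 1 region. Their values ran between 2.05 and 26.34, and the highest, at 81.6 kb, reached percentile 99.2 of its list. Both this split and the stretches that follow were drawn after the positions were seen. The plot of positions shows this group at the right of the NUP214 panel.

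**Figure D2:**
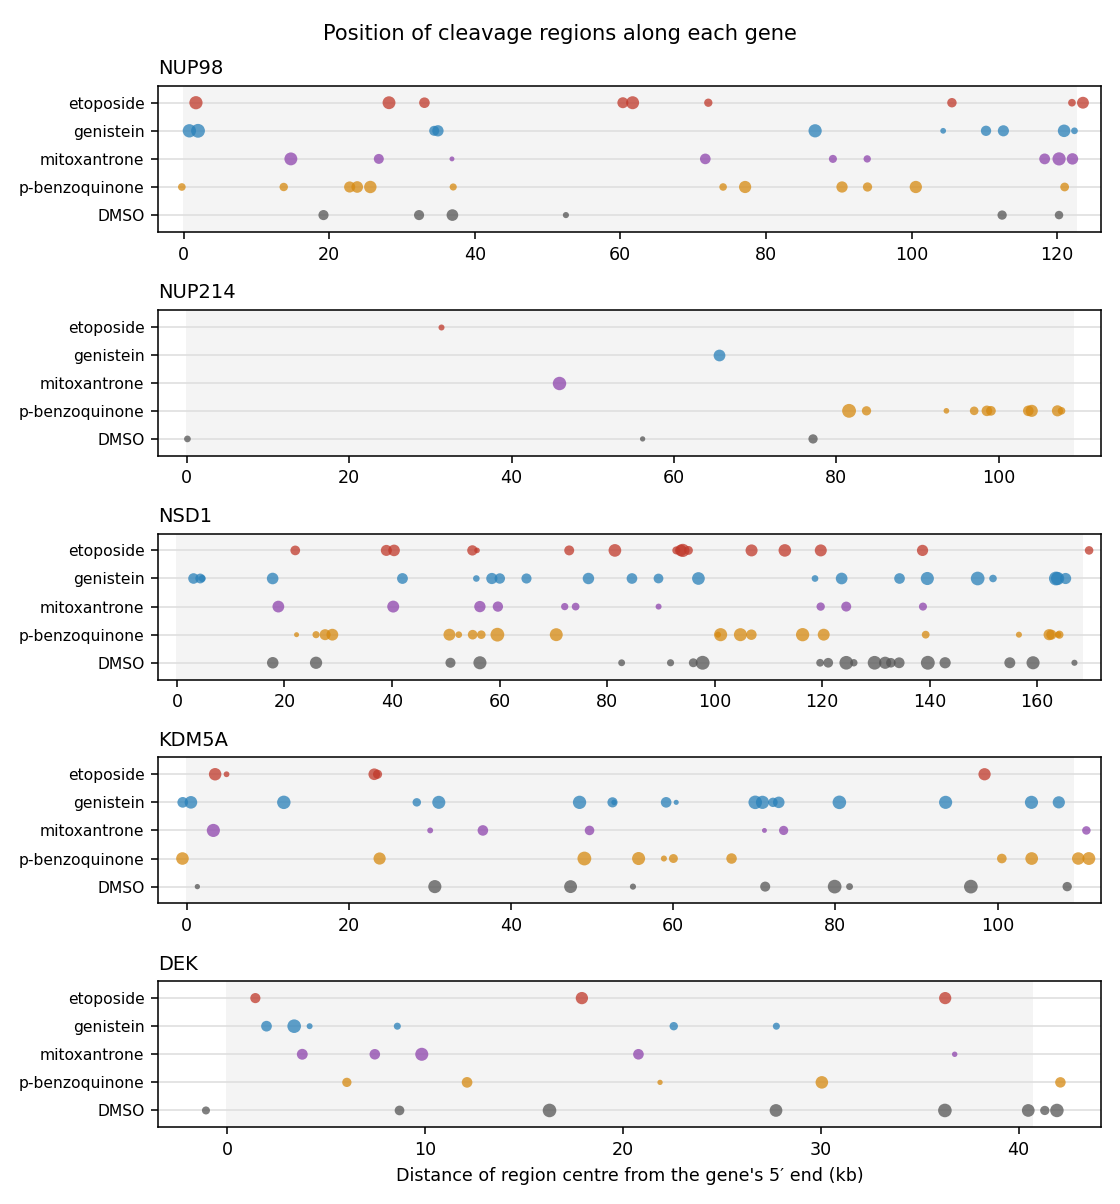
Position of each region centre along the 5 genes (horizontal axis, kb from the 5′ end; grey marks the gene body), with a row per list in each panel. Point size grows with the value's percentile in its own list. The 10 p-benzoquinone regions of NUP214 all lie beyond 81 kb, and the 5 genes differ in scale.

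The sparse part of NUP214 was the end of a longer sparse stretch of chromosome 9. Between 400 kb before the NUP214 start and 75 kb after it, relative density was 0.223 with etoposide (7 regions), 0.126 with genistein (9), 0.143 with mitoxantrone (5), 0.356 with p-benzoquinone (22) and 0.375 with DMSO (20). Between 75 and 500 kb after the start it was 0.712 with etoposide, 0.783 with genistein, 0.897 with mitoxantrone, 1.56 with p-benzoquinone and 0.944 with DMSO. Density was higher after the 75 kb mark than before it in all 5 lists, DMSO included. Before the sparse stretch, between 500 and 400 kb before the start, the values were 0.757 with etoposide, 0.333 with genistein, 0.681 with mitoxantrone, 1.31 with p-benzoquinone and 0.624 with DMSO.

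The sparse stretch holds most of ABL1, the kinase gene of the K562 fusion, and all of LAMC3, a laminin gene, while PRRC2B lies beyond it. The ABL1 counts are of the whole gene, whose lowest coordinates lie just before the stretch. ABL1 (175 kb) held 3 regions with etoposide, 4 with genistein, 3 with mitoxantrone, 7 with p-benzoquinone and 7 with DMSO. PRRC2B (127 kb) held 9 with etoposide, 20 with genistein, 12 with mitoxantrone, 24 with p-benzoquinone and 13 with DMSO. The shorter gene thus held more regions than ABL1 in each list.

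**Figure D3:**
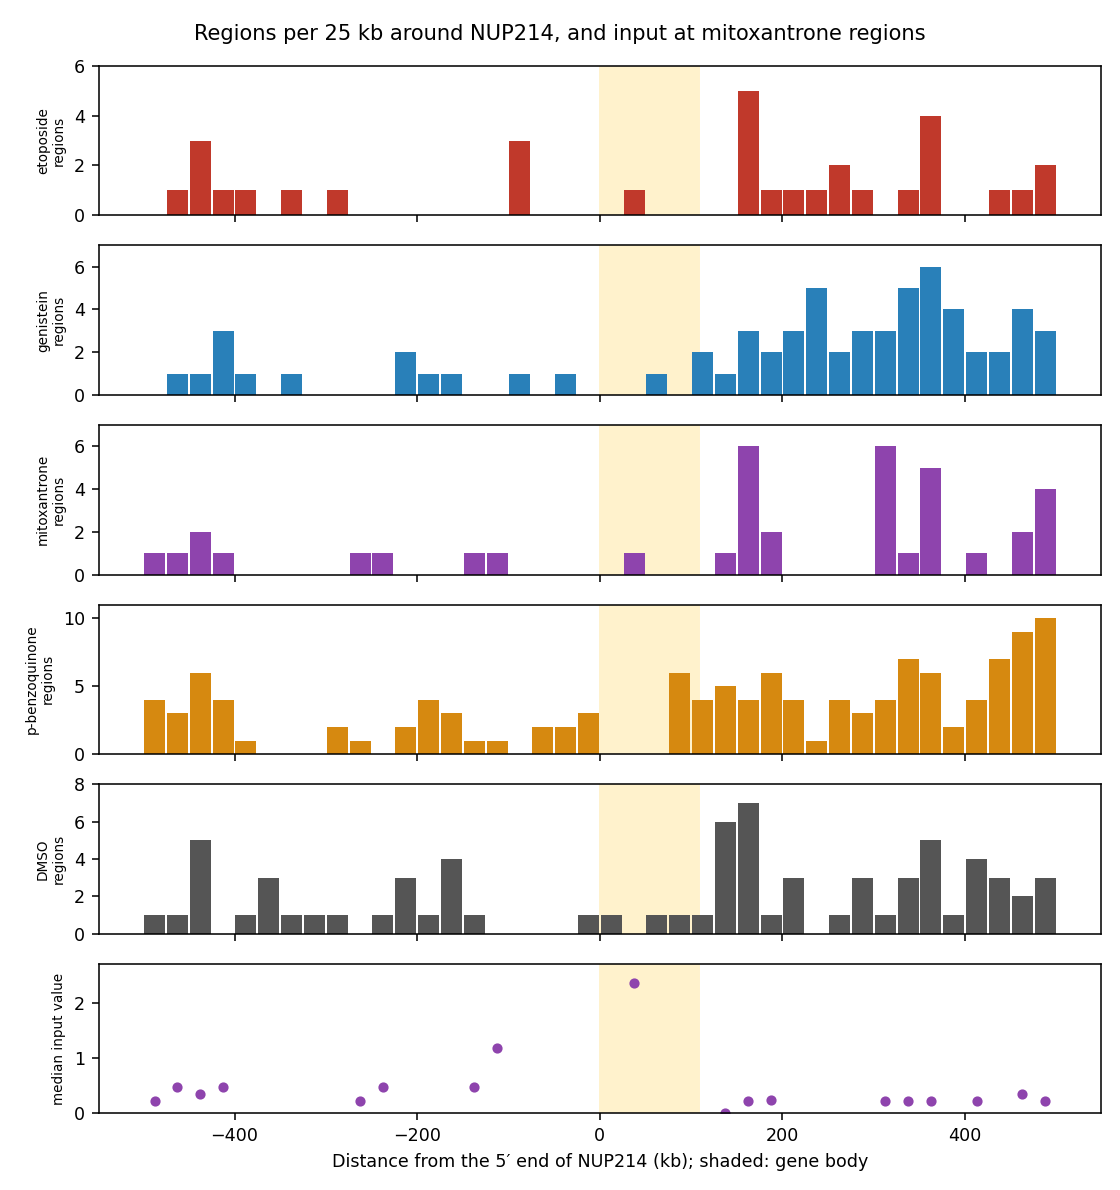
Number of regions per 25 kb (vertical axes) within 500 kb of the NUP214 start (horizontal axis, kb; shading marks the gene body), with a panel per list. The lowest panel gives the median input value of the mitoxantrone regions in each bin, which is highest, 2.36, in NUP214.

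Input DNA, which rises with the number of copies of a stretch, was high at the mitoxantrone region of NUP214. Only the mitoxantrone list carries an input value, and over that list its median was 0.230 and 22.5% of regions had an input of 0. The mitoxantrone region of NUP214 had an input of 2.36, a level reached by 1.26% of that list, and its log2 of value over input was 4.02, close to the lowest in the list, 4.00. Over the 5 mitoxantrone regions of the sparse stretch the input ran between 0.230 and 2.36 with a median of 0.470, against a median of 0.230 over 28 regions between 75 and 500 kb after the start. The 5 mitoxantrone regions before the sparse stretch, between 500 and 400 kb before the start, had a median of 0.470 too, with none above 0.710. By contrast, median input was 0.230 in NUP98, NSD1 and KDM5A and 0 in DEK, where 3 of 5 mitoxantrone regions had an input of 0. Where input was above 0, every region of the mitoxantrone list had a value of at least 16 times its input. Input is thus seen only at regions that reached this level, and the medians do not describe whole stretches or genes. The part of copy number in the low region number of NUP214 was not tested.

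Regions in NUP214 were also narrow, a description added after the member values were seen. Their widths ran between 27 and 268 bp, and 14 of 16 were narrower than the median of their list, which is between 150 and 160 bp in all 5. In the sparse stretch 46 of 63 regions (73.0%) were narrower than that, against 121 of 229 (52.8%) between 75 and 500 kb after the start. The second stretch includes the p-benzoquinone regions of NUP214, 8 of 10 of them narrower than the list median, so narrow regions were not confined to the sparse stretch. Median widths in the other genes were 166 bp in NUP98, 156 bp in NSD1, 166 bp in KDM5A and 158 bp in DEK.

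NSD1, the partner that NUP98 meets in acute myeloid leukaemia, held 16 regions with etoposide, 22 with genistein, 10 with mitoxantrone, 22 with p-benzoquinone and 21 with DMSO. Relative density was 1.4 with etoposide (0.803 to 2.28), 0.849 with genistein (0.532 to 1.29), 0.790 with mitoxantrone (0.379 to 1.45), 0.981 with p-benzoquinone (0.615 to 1.49) and 1.09 with DMSO (0.672 to 1.66). All 5 intervals held 1. With etoposide NSD1 ranked highest of the 5 genes, at percentile 84.7 of 1906 genes of like length, and its interval of density over NUP98, the next gene, held 1 (ratio 1.30, 0.543 to 3.35).

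The regions of NSD1 ran along most of the gene, from part 2 onward in 4 lists. With genistein 3 regions lay in part 1, where the other lists had 0. With etoposide 4 of 16 regions lay in part 6, and these included the highest NSD1 value of that list, 18 at 94.1 kb. Part 8 held 1 region with etoposide, 3 with genistein, 2 with mitoxantrone and 1 with p-benzoquinone, against 8 of 21 with DMSO. The DMSO regions of part 8 reached values of 31.46 and 34.16, at percentiles 96.3 and 97.0. A different DMSO region of part 8, of value 7.16 (percentile 55.9), overlaps PRMT1P1, an annotated pseudogene within NSD1. The genistein region at the same place overlaps it too, so reads of the pseudogene's parent gene cannot be told apart there.

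High NSD1 values came with genistein and p-benzoquinone and also without a poison. Genistein reached 61.7 at 164 kb (percentile 98.6) and p-benzoquinone 21.27 at 59.6 kb (percentile 98.2). With mitoxantrone no NSD1 value passed percentile 70.8, and the log2 of value over input ran between 4.07 and 6.17 where input was above 0. DMSO reached 64.3 at 97.8 kb (percentile 99.7) and 58.55 at 140 kb (percentile 99.6), where it overlapped a genistein region of value 30.49.

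KDM5A, the demethylase partner of NUP98, held 5 regions with etoposide, 18 with genistein, 7 with mitoxantrone, 11 with p-benzoquinone and 9 with DMSO. Relative density was 0.668 with etoposide (0.217 to 1.56), 1.06 with genistein (0.627 to 1.67), 0.842 with mitoxantrone (0.338 to 1.73), 0.747 with p-benzoquinone (0.373 to 1.34) and 0.708 with DMSO (0.324 to 1.34). Genistein was the only list above 1, and no interval lay apart from 1. Among the genistein regions 4 of 18 passed percentile 90, with values between 34.45 and 42.7, and 4 of the 18 lay in part 7 of the body. The highest p-benzoquinone value, 23.93 at 49.1 kb, reached percentile 98.8, and DMSO reached 34.5 at 96.7 kb, percentile 97.1.

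The highest KDM5A values of both etoposide and mitoxantrone lay by the 5′ end. Etoposide had 12.9 at 3.52 kb and mitoxantrone 31.44 at 3.30 kb, where input was 1.65, the highest input among mitoxantrone regions of the gene. Just before the start, genistein (13.97) and p-benzoquinone (8.92) regions shared a place, chr12:389679-389904, which also lies inside CCDC77, the neighbouring gene.

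DEK, the partner of NUP214, held 3 regions with etoposide, 6 with genistein, 5 with mitoxantrone, 5 with p-benzoquinone and 8 with DMSO. Relative density was 1.02 with etoposide (0.21 to 2.97), 0.894 with genistein (0.328 to 1.95), 1.52 with mitoxantrone (0.495 to 3.56), 0.861 with p-benzoquinone (0.280 to 2.01) and 1.60 with DMSO (0.689 to 3.14). All intervals held 1, and they were the widest of the 5 genes because DEK is the shortest. The 8 DMSO regions are 5 in the body and 3 in the flanks, and the 2 of them beyond the 3′ end fall in the neighbouring gene KDM1B. Genistein had 3 of its 6 regions within 5 kb of the 5′ end, with 44.07 at 3.38 kb (percentile 95.5). Of the DMSO values in DEK, 29.43, 28.76 and 25.35 passed percentile 90 of that list.

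Each poison was then set against DMSO to ask whether its list held more regions in a gene than list size accounts for. The ratio is the poison's region number over that of DMSO, scaled to list size, and a gene was called past 2-fold at a ratio of at least 2 or at most 0.5. Over all genes with at least 10 regions in either list, 2.96% were called higher and 10.5% lower with etoposide, 6.30% and 7.08% with genistein, 3.84% and 11.5% with mitoxantrone, and 9.25% and 4.40% with p-benzoquinone. Of the 20 ratios of the 5 genes, 4 were called, and 1 of these, NUP214 with p-benzoquinone, met that minimum of 10 regions. All 20 intervals held 1, so no difference between a poison and DMSO exceeded counting error in any of these genes. The 4 ratios of a gene share the same DMSO count.

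For NUP98 the ratio was 2.55 with etoposide (0.810 to 8.70), 1.24 with genistein (0.410 to 4.17), 2.29 with mitoxantrone (0.729 to 7.83) and 1.73 with p-benzoquinone (0.600 to 5.61). All 4 lay above 1, over 6 DMSO regions. For NUP214 it was 0.566 with etoposide (0.0108 to 7.05), 0.249 with genistein (0.00474 to 3.10), 0.509 with mitoxantrone (0.00970 to 6.34) and 2.88 with p-benzoquinone (0.741 to 16.3). Only the p-benzoquinone ratio lay above 1, and p-benzoquinone exposure was longer than that of the other poisons.

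Among the partners NSD1, KDM5A and DEK no ratio was called, although some passed 2-fold under other settings. For NSD1 it was 1.29 with etoposide (0.631 to 2.60), 0.782 with genistein (0.410 to 1.50), 0.728 with mitoxantrone (0.306 to 1.61) and 0.904 with p-benzoquinone (0.474 to 1.73). For KDM5A it was 0.943 with etoposide (0.248 to 3.13), 1.49 with genistein (0.637 to 3.77), 1.19 with mitoxantrone (0.376 to 3.59) and 1.05 with p-benzoquinone (0.397 to 2.88). For DEK all 4 lay below 1, at 0.637 with etoposide (0.109 to 2.65), 0.560 with genistein (0.160 to 1.84), 0.955 with mitoxantrone (0.246 to 3.31) and 0.539 with p-benzoquinone (0.139 to 1.87). That direction rests in part on the flanks. Over the DEK body alone, with 5 DMSO regions in place of 8, the ratio was 1.02 with etoposide and 1.53 with mitoxantrone. It stayed below 1 with genistein (0.896) and p-benzoquinone (0.690). The median ratio over all genes was 0.926 with etoposide, 1.03 with genistein, 0.917 with mitoxantrone and 1.10 with p-benzoquinone.

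**Figure D4:**
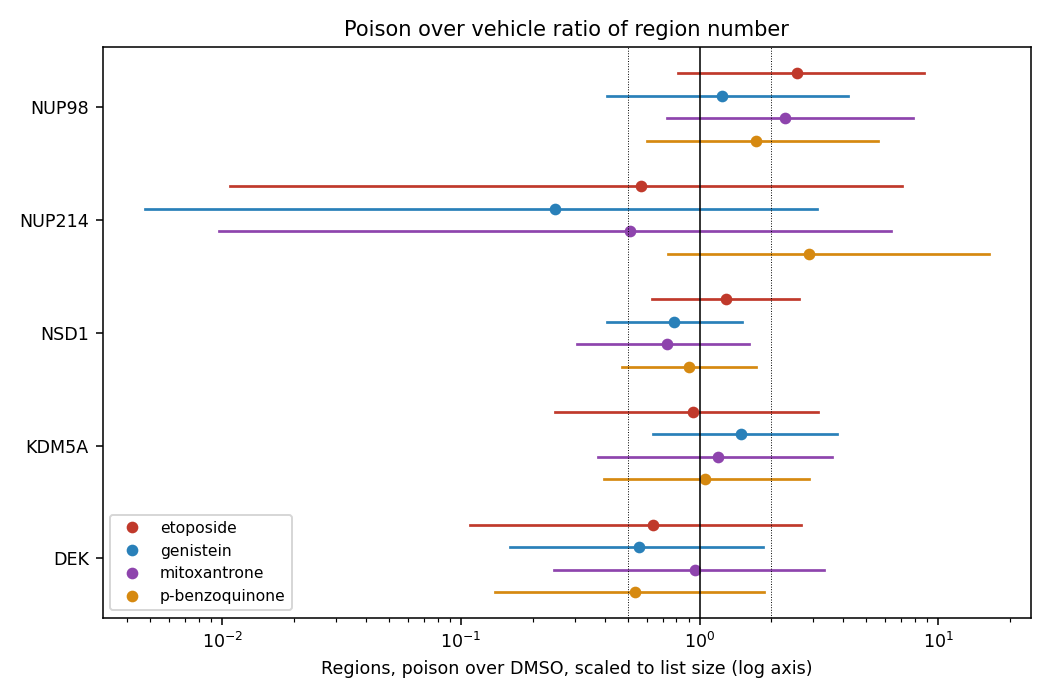
Ratio of region number, poison over DMSO, scaled to list size (horizontal log axis), for each gene and poison; points are ratios and bars exact binomial 95% intervals, with lines at 0.5, 1 and 2. All 20 bars cross 1, and the widest belong to NUP214.

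Between genes, the order of densities was mostly within counting error. In each list the 5 genes were ranked, and 19 of 20 intervals between neighbours in rank held 1. The exception was genistein, where NUP98 over NUP214 was 8.94 (1.27 to 388). Outside that order, NUP214 was below all 4 other genes with genistein. It was below NSD1 with etoposide (ratio 0.0953, 0.00227 to 0.613), below DEK with mitoxantrone (0.0790, 0.00167 to 0.706) and below NUP98 with either (0.124, 0.00284 to 0.897, in both). With DMSO too it was below NSD1 (0.218, 0.0416 to 0.730) and DEK (0.148, 0.0253 to 0.617). With p-benzoquinone it was lowest by value, but its interval over each of the 4 other genes held 1. Its intervals also held 1 over KDM5A and DEK with etoposide and over NSD1 and KDM5A with mitoxantrone. The same was so over NUP98 and KDM5A with DMSO.

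Region values can be read only within a list, since their unit is not stated. Of the regions in these genes, 0 of 34 passed percentile 90 of the list with etoposide, which allows a share of up to 10.3%. The share was 15.8% with genistein (9 of 57, 7.48 to 27.9), 3.12% with mitoxantrone (1 of 32, 0.0791 to 16.2), 6.67% with p-benzoquinone (4 of 60, 1.85 to 16.2) and 19.1% with DMSO (9 of 47, 9.15 to 33.3). About 10% of each whole list lies there, and each interval held that share. The 9 DMSO regions were 4 in NSD1, 3 in DEK and 2 in KDM5A, with none in either nucleoporin.

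**Figure D5:**
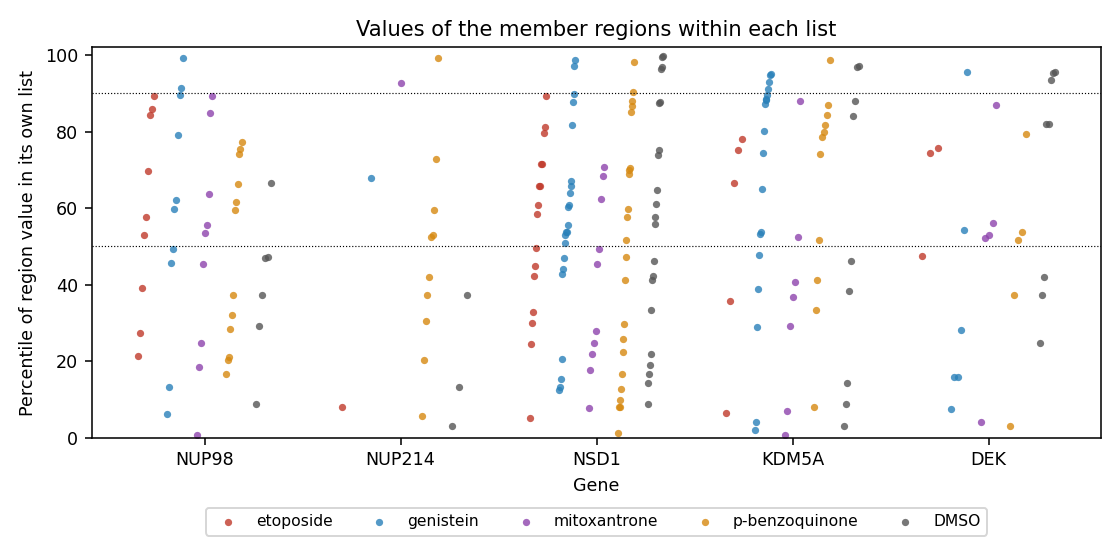
Percentile of each region's value within its own list (vertical axis; dotted lines at 50 and 90) for the regions of each gene (horizontal axis), by list. With etoposide all 34 points lie below 90, and with DMSO 9 of 47 lie above it, all in NSD1, KDM5A or DEK.

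Regions of different lists overlapped in these genes about as often as in the whole lists. Of the 230 regions 56 (24.3%) overlapped a region of another list, against 22.8% of all regions. The share was 34.1% in NSD1, 29.6% in DEK, 23.9% in NUP98 and 12% in KDM5A. Overlap of at least 1 bp joined regions of 2 or more lists at 27 places, of which 15 were in NSD1, 5 in NUP98, 4 in DEK, 3 in KDM5A and 0 in NUP214. When regions within 200 bp also counted, 17 KDM5A regions met another list in place of 6, and 18 NUP98 regions in place of 11. At 25 places 2 lists met and at 2 places 3 lists met. In NUP98 the regions of mitoxantrone (3.88), p-benzoquinone (2.65) and DMSO (9.46) formed a chain at chr11:3760433-3760770, with no base common to all. In NSD1 the regions of etoposide (11.2), mitoxantrone (8.74) and DMSO (3.0) met at chr5:177251372-177251625, with 6 bp in common.

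Shares of regions that overlapped DMSO were close to those of the whole lists for most poisons. With etoposide 5.88% of the regions in these genes overlapped a DMSO region (whole list 8.39%), with genistein 8.77% (6.79%) and with p-benzoquinone 5.0% (7.88%). With mitoxantrone 6 of 32 did, 18.8% (7.21 to 36.4), against 7.06% of the whole list, which lies just below that interval. For each of the other poisons the interval held the share of the whole list. The mitoxantrone share is 1 of 4 such comparisons and rests on 6 overlaps in a list of 1 library. Seen from the DMSO list, those 6 were 12.8% of its 47 regions here, against 4.65% of the whole list.

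The median of other nucleoporin genes lay nearer the list mean than NUP214 in every list. Of 29 measured nucleoporin genes, 11 lay above the list mean with etoposide, 11 with genistein, 9 with mitoxantrone, 15 with p-benzoquinone and 9 with DMSO. These are 37.9%, 37.9%, 31.0%, 51.7% and 31.0%, beside 44.4%, 43.1%, 42.6%, 56.8% and 49.8% of all measured genes in the same order. Their median relative density was 0.942 with etoposide, 0.862 with genistein, 0.848 with mitoxantrone, 1.00 with p-benzoquinone and 0.776 with DMSO, beside 0.907, 0.917, 0.880, 1.12 and 0.998 over all measured genes in the same order. The highest means over the 5 lists belonged to SEC13 (1.55), a coat protein of the pore and of transport vesicles, and NUP37 (1.34), of the pore's outer ring. POM121, a membrane nucleoporin with near-identical copies in the genome, whose count is therefore uncertain, had a mean of 0.0377 and was the only 1 of the 29 below NUP214 (0.246). Next lowest was GLE1 (0.474), an mRNA export factor, below the mean in every list. Both were named after their values were seen.

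Other fusion partners of NUP98 or NUP214 numbered 28 measured genes, of which 14 lay above the mean with etoposide, 9 with genistein, 15 with mitoxantrone, 15 with p-benzoquinone and 15 with DMSO. These are 50.0%, 32.1%, 53.6%, 53.6% and 53.6%, to be read beside the shares of all measured genes above. HOXA13 (mean 1.73) and HOXA11 (1.65), homeobox genes, were highest, each with at most 3 regions in a list. The K562 fusion genes XKR3 (0.367) and ABL1 (0.256) ranked 26 and 27 of the 28. XKR3 (41.9 kb) held 1 region with etoposide, 2 with genistein, 1 with mitoxantrone, 2 with p-benzoquinone and 3 with DMSO. By value, both genes of the described NUP214-XKR3 fusion were below the mean in all 5 lists. No interval was computed for XKR3, which rests on 1 to 3 regions per list, and that of NUP214 with p-benzoquinone held 1. Among 4 relatives of the chromatin partners, KDM5B (1.10) and NSD2 (1.04) were highest.

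Gene profiles most like those of the 5 genes were taken over 11183 genes with a region in every list, by the Euclidean distance of log2 relative density over 5 lists. NSD1 was nearest GAB4 (0.161) and NDUFAF6 (0.165), KDM5A nearest AGO3 (0.158) and UBE2U (0.197), and DEK nearest DNAAF11 (0.286) and HDLBP (0.316). NUP98 was nearest CCDC66 (0.411) and ZNF41 (0.421). For NUP214 the nearest in this pool, STIL and TC2N, were at 1.21 and 1.23. The pool leaves out genes with 0 regions in any list, POM121 among them. NUP214 itself had 1 region each with etoposide, genistein and mitoxantrone. These distances therefore cannot show whether its profile is unusual among sparse genes.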

How the data were processed

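The authors deposited 1 union list of regions per treatment, with a score per region whose unit is not stated. Per the submitters' processing notes, Bowtie2 2.1.0, SAMtools 0.1.19 and hg38 were used; the region caller is not given in the sources used here. Only the deposited mitoxantrone list also has an input score, a log2 of the ratio of score to input, and a p-value, which is given only where the deposited input is 0 (45550 of 202865 regions). That list was tied to its library by treatment name. The depth per library is unknown.

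Regions on chromosomes 1 to 22, X and Y were kept, and 10562 overlapping or duplicate genistein entries were joined. Genes and promoters are RefSeq, GRCh38.p14. List means were taken over 2763 Mb, the bins of 100 kb that held a region of some list, and 19035 genes were measured, with at least 50% of their window in such bins. Profiles used a pseudocount of 0.1. Amplified reads lack molecular identifiers and so are not independent molecules. Members and lists were chosen with earlier results of these data known. Named genes are the 5 members, the 2 most alike genes for each, the highest region per gene and list, places of 3 lists, and the 2 densest genes per gene list. ABL1, XKR3, LAMC3 and PRRC2B were named after their values were seen. Counting steps were tested on simulated data. Counts and intervals came from pandas 2.3.3 and scipy 1.17.1 under Python 3.11.15, with numpy 2.4.6, and figures from matplotlib 3.10.9.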

Additional observations from a re-analysis of the deposited data

How the results depend on the processing

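Ratios of poison over DMSO were recomputed with other flanks, overlap in place of centre, values of at least 4, entries as deposited, covered bases, scaling to both sides of the gene, and value steps of 1 class. Of 156 alternative ratios, 153 lay inside the counting interval of the main ratio, and no called ratio crossed 1. Those intervals are wide, for example 0.741 to 16.3 for NUP214 with p-benzoquinone, and overlap in place of centre left every ratio unchanged. The count of 153 therefore does not measure how stable the ratios are. NUP214 with etoposide was 0 with values of at least 4, from 0 regions against 1 with DMSO. In the fine step class, which keeps low values only, DEK was 0 with etoposide (0 regions against 1). There DEK was 1.92 with p-benzoquinone (4 regions against 1 with DMSO). The reason for these moves was not tested. Called ratios ran over 1.13 to 3.54 for NUP98 with etoposide (past 2-fold in 7 of 8), 1.96 to 3.30 for NUP98 with mitoxantrone (6 of 7), 0.105 to 0.560 for NUP214 with genistein (4 of 7) and 1.92 to 5.65 for NUP214 with p-benzoquinone (7 of 8). Of the uncalled ratios, 9 passed 2-fold under at least 1 alternative: 3 of DEK (7 of 30 alternatives, among them 0.382 with p-benzoquinone and 0.391 with genistein), 2 each of NUP214 and KDM5A (2.11 with mitoxantrone, 0.479 with p-benzoquinone for KDM5A), and genistein of NSD1 (0.497) and NUP98 (2.20). In 16 of 156 cases, over 12 uncalled ratios, the value moved to the other side of 1, and for DEK with mitoxantrone it was 1.15 when scaled to both sides. In the coarse step class 9 ratios could not be computed because DMSO had 0 regions. DEK held 5 DMSO regions without flanks, against 8, and NUP214 held 6 p-benzoquinone regions of value at least 4, against 10. No paired analysis was possible because the lists pool the libraries, and no library could be left out for the same reason. Counts of 1 to 3 regions limit every statement on single lists.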
